A study of Mus musculus with 2 samples.

Results

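The Rab small GTPases were examined in ribosome-associated RNA captured from Drd2-expressing cells of the mouse medial prefrontal cortex. Members were all probe sets that the platform annotation assigns to a single gene whose symbol is Rab, a number and at most 1 further letter. This gave 66 probe sets of 58 genes, out of 23521 probe sets of 22180 genes named singly. The material came from adult D2Cre::RiboTag mice, in which a Cre recombinase driven by Drd2, the dopamine D2 receptor gene, switches on a haemagglutinin-tagged ribosomal protein, and tagged ribosomes were precipitated with an antibody to the tag. The labels name no further genotype, strain or treatment. They call the cells neurons and give 2 arrays, numbered as technical replicates, for pooled tissue of 5 mice. A shared pool is assumed, since the labels leave this unsaid. The arrays form 1 group, with neither input RNA, a control precipitation nor another condition analysed here. The Cre marks any cell in which the driver is or was active, and an animal's own contribution is lost in the pool.

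Rab proteins are the largest branch of the Ras superfamily and act as switches on the membranes of the cell. Bound to GTP, a Rab sits on its compartment by prenyl groups attached near its C-terminus and recruits effectors that move, tether or fuse vesicles, and bound to GDP it is drawn off the membrane by a GDP dissociation inhibitor. Guanine nucleotide exchange factors turn Rabs on and GTPase-activating proteins turn them off. In neurons they are best known for synaptic vesicle release, for the sorting of receptors through dendritic endosomes and for axonal transport.

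Of the 58 Rab genes, 53 gave signal above background on both arrays, against 60.5% of all 22180 named genes. Values are log2 signals, and a gene with several probe sets is given as their mean. A gene counted as above background where its signal exceeded, on each array, the 95th percentile of 1373 receptor genes of the olfactory and vomeronasal organs, which stood at 5.61 on replicate 1 and 5.64 on replicate 2. The threshold is permissive, since it was also exceeded by 9 of 32 genes known from testis, liver or skeletal muscle. Leaving out the receptor genes, 64.3% of 20807 named genes passed. At the 99th percentile of the same receptor genes 40 Rab genes remained above, against 44.8% of all named genes. A stricter line, taken as the 95th percentile over those 32 genes of other tissues, at 7.26 and 7.06, was exceeded by 40 Rab genes, against 38.2% of all named genes and 40.8% of those other than the receptor genes. Odf1 and Acta1 of those 32 genes also exceeded it, and Rpl22, the gene of the tagged protein, lay under it at 6.71 and 6.75. A call at this line therefore describes signal and does not settle whether a gene is expressed. The median over the 58 Rab genes was 8.47, against 6.36 over all named genes. These shares describe the arrays and were not tested, since there is no second group. In RNA pooled from many cells, few cells with much of a messenger and many cells with little cannot be told apart.

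Within the family the stricter line fell into a gap. The 18 genes under it had means of at most 6.65, that of Rab27a, and the 40 genes over it had means of at least 7.34, that of Rab14. Wider gaps lay elsewhere, between Rab7b at 4.75 and Rab25 at 5.50 and between Rab2a at 11.81 and Rab3a at 12.52. The gap is one of gene means, since 1 probe set of Rab3c had a mean of 7.05. At the lower threshold there was no such gap. Rab38 passed with 5.64 and 5.72 on replicates 1 and 2, whereas Rab37 did not with 5.60 and 5.78. Signals of different genes come from different probes, so a difference in signal between genes, or between the medians of lists, need not be a difference in the amount of RNA.

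**Figure D1:**
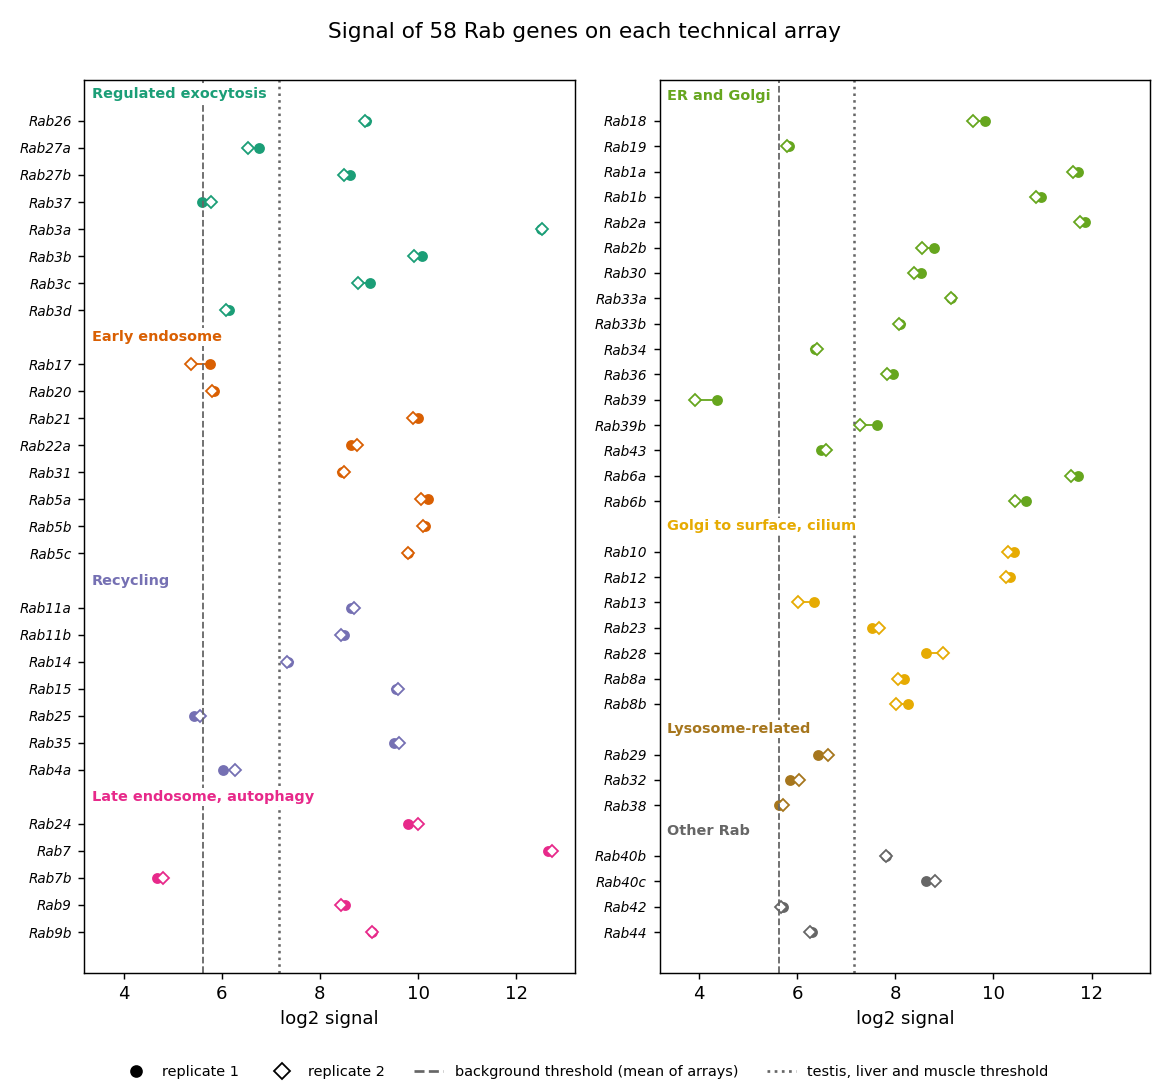
Log2 signal (x axis) of each of the 58 Rab genes on replicate 1 (filled circles) and replicate 2 (open diamonds), grouped by role, with the background threshold (dashed) and the testis, liver and muscle threshold (dotted) at the mean of the arrays. The arrays lie close together for each gene, and 40 genes stand to the right of both lines.

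The arrays gave almost the same picture as each other. Over all 34472 probe sets Pearson's r between them was 0.9941, with medians of 5.80 and 5.81. Drd2, which defines the captured cells, was at 10.78 and 10.70, and all 8 neuronal markers exceeded both thresholds. Markers of other brain cells also gave signal. All 8 astrocyte, all 7 measured oligodendrocyte, all 8 microglia and 7 of 8 endothelial markers were above background. In that order, the means of all measured markers ran from 6.67 to 11.05, 6.64 to 9.39, 5.85 to 7.84 and 4.37 to 7.16. The lowest endothelial mean was that of Ly6c1, the marker not above background, and the next was 6.02, that of Kdr. At the stricter line 6, 5, 3 and 1 of them passed, or 75.0%, 71.4%, 37.5% and 12.5% of those measured. Of all named genes 60.5% were above background and 38.2% passed the stricter line. The part of these other cells in the Rab signals was not tested.

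Counts by role, here and below, stand beside shares of all named genes of 60.5% above background and 38.2% over the stricter line. Rabs of regulated exocytosis gave signal in 7 of 8 cases, and 5 exceeded the stricter line. Rab3a, the main Rab of synaptic vesicles, was at 12.51 and 12.53 on replicates 1 and 2. Its paralogue Rab3b, also found on synaptic vesicles, was at 10.07 and 9.91. Rab3c, another vesicle-associated isoform, was at 9.02 and 8.77. All 3 thus exceeded both thresholds on each array by their means, although 1 of the 2 probe sets of Rab3c lay under the stricter line at 7.20 and 6.90. Rab3d, best known from the granules of secretory gland cells, was the exception in its subfamily, with 6.14 and 6.09, above background but under the stricter line.

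The remaining exocytic members were divided in the same way. Rab26, which binds synaptic vesicles and has been linked to their autophagy, had 8.93 and 8.91. Rab27b, known from secretory granules, was at 8.61 and 8.49. Both passed each threshold. Rab27a, which moves melanosomes and the granules of cytotoxic T cells, was at 6.75 and 6.54, so its pair was split by the stricter line. Rab37, described in mast cell granules, exceeded background on replicate 2 only.

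Early endosomal Rabs were above background in 7 of 8 cases, and 6 passed the stricter line. The Rab5 proteins drive the fusion of early endosomes, and all 3 isoforms gave clear signal. Rab5a was at 10.21 and 10.05, Rab5b at 10.13 and 10.10, and Rab5c at 9.79 and 9.80. Rab21, which takes part in integrin endocytosis, was at 9.99 and 9.89. Rab22a, of early and recycling endosomes, was at 8.64 and 8.75, and Rab31, which works between the trans-Golgi network and endosomes, at 8.45 and 8.49. These genes exceeded every threshold on both arrays. Rab20, known from the maturation of phagosomes, was at 5.84 and 5.81, only just above background. Rab17, a Rab of epithelial transcytosis, had 5.77 and 5.38 and so passed on replicate 1 only.

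Among Rabs of recycling, 6 of 7 were above background and 5 passed the stricter line. Rab11a and Rab11b, which carry cargo through the recycling endosome and in neurons supply dendritic spines with receptors, were at 8.64 and 8.69 and at 8.48 and 8.44. Rab35, of rapid recycling at the plasma membrane, was at 9.50 and 9.60. Rab15, an endosomal Rab known from brain, was at 9.55 and 9.58. All of these lay over both thresholds. Rab14, which works between Golgi and endosomes, passed the stricter line narrowly with 7.35 and 7.32. Rab4a, of rapid recycling from early endosomes, did not, with 6.03 and 6.26. Rab25, the epithelial relative of Rab11, was under background on both arrays at 5.43 and 5.56. Rab4b, the paralogue of Rab4a, is no member, because each of its probe sets also names another gene. The probe set shared with Mia gave 9.73 and 9.70, and the one shared with Mia and Mir3101 gave 3.32 and 3.61. The member Rab3b likewise has a further probe set, shared with 8030443G20Rik and left out of its value, at 4.43 and 4.27.

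Rabs of late endosomes and autophagy showed an all-or-none division. Rab7, which governs the late endosome and lysosome and the retrograde transport of neurotrophin receptors in axons, was at 12.64 and 12.72. Rab9, which returns mannose 6-phosphate receptors to the Golgi, was at 8.52 and 8.43. These values lay over both lines. Its relative Rab9b was at 9.07 on both arrays. Rab24, linked to autophagy, was at 9.80 and 10. All 4 passed each threshold on both arrays, whereas Rab7b, which takes part in transport from endosomes to the trans-Golgi network, was under background at 4.69 and 4.81.

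Of the 16 Rabs of the endoplasmic reticulum and Golgi, 15 were above background and 12 passed the stricter line. Rab1a and Rab1b, which act in transport from the endoplasmic reticulum to the Golgi, were at 11.73 and 11.62 and at 10.97 and 10.87. Rab2a, of the early secretory pathway, was at 11.86 and 11.76, and its paralogue Rab2b at 8.78 and 8.54. Both pairs exceeded each threshold on each array. Rab6a, of retrograde Golgi traffic, was at 11.72 and 11.58. Rab6b, its isoform known from brain, was at 10.67 and 10.45. The lowest of these 6 means, that of Rab2b, stood 3.03 log2 units over the mean background threshold.

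Further Golgi members also gave signal over both thresholds. Rab18, of the endoplasmic reticulum and lipid droplets, was at 9.82 and 9.58. Rab33a, described in growing axons, was at 9.13 on both arrays, and Rab33b, a Golgi Rab that binds the autophagy protein ATG16L1, at 8.09 and 8.07. Rab30, a Golgi Rab, was at 8.53 and 8.39. Each of these stood over both lines on each array. Rab36, a relative of Rab34, was at 7.95 and 7.83. Rab39b, whose human orthologue is mutated in X-linked intellectual disability, was at 7.64 and 7.28, which exceeded the stricter line on replicate 1 by more than on replicate 2 and rested on 1 of its probe sets, described further on.

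The remaining Golgi Rabs lay lower. Rab43 was at 6.48 and 6.60, Rab34, which acts in lysosome positioning and in the making of cilia, at 6.36 and 6.41, and Rab19 at 5.84 and 5.79. They were above background and under the stricter line. Rab39, the paralogue of Rab39b, was under background on both arrays at 4.37 and 3.93.

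All 7 Rabs that serve the route from the Golgi to the cell surface or the cilium were above background, and 6 passed the stricter line. Rab10, which acts in exocytosis and axonal membrane supply, was at 10.42 and 10.29. Rab12, which directs the transferrin receptor to degradation, was at 10.34 and 10.25. Rab8a and Rab8b, of polarised exocytosis and ciliogenesis, were at 8.17 and 8.07 and at 8.26 and 8.01. Each of these genes exceeded both lines on each array. Rab28, mutated in human cone-rod dystrophy, was at 8.63 and 8.97. Rab23, which restrains Hedgehog signalling, was at 7.53 and 7.66. Rab13, known from epithelial junctions, was the member under the stricter line, with 6.34 and 6.02.

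The 3 Rabs of lysosome-related organelles were above background, but none passed the stricter line. Rab29, a Golgi and lysosome Rab tied to the Parkinson's disease kinase LRRK2, was at 6.42 and 6.64. Rab32 and Rab38, which build melanosomes, were at 5.85 and 6.05 and at 5.64 and 5.72. Of the other 4 members, Rab40b and Rab40c, which carry a SOCS box that recruits a ubiquitin ligase, passed both lines. Rab40b was at 7.82 on both arrays and Rab40c at 8.62 and 8.81. The less studied Rab42 was at 5.72 and 5.68, and Rab44, a large Rab of mast cells, at 6.30 and 6.26. Both were above background only.

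**Figure D2:**
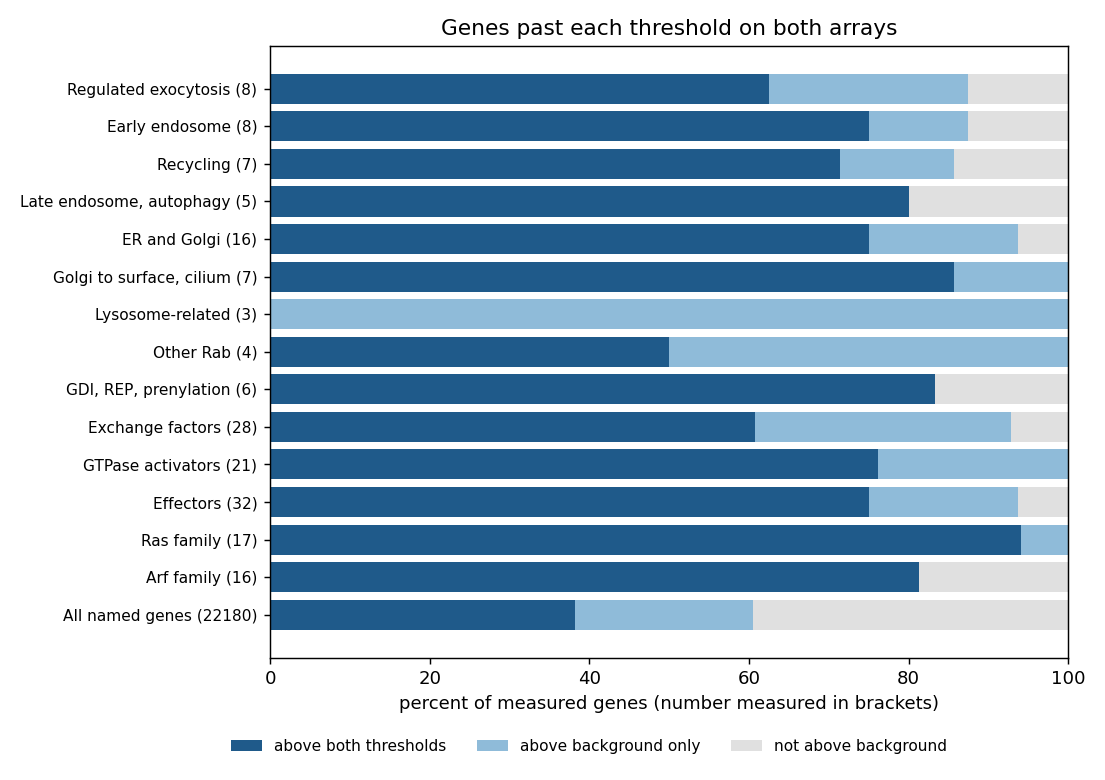
Percent of measured genes (x axis) above both thresholds, above background only and not above background, for the 8 Rab role groups, for Rab regulators and effectors, for the Ras and Arf families and for all named genes, with the number measured in brackets. Lysosome-related Rabs are the Rab group with no gene above both thresholds.

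Some members were listed by where they are best known, and the 2 lists fell on opposite sides of the stricter line. All 7 Rabs known from brain (Rab3a, Rab3b, Rab3c, Rab6b, Rab15, Rab33a and Rab39b) exceeded both thresholds, with a median of 9.57. Of 8 Rabs known from epithelia, blood cells or pigment cells, 5 were above background and 0 passed the stricter line, with a median of 5.76. Their share above background, 62.5%, was near the 60.5% of all named genes, of which 38.2% passed the stricter line. Those under background on at least 1 array were Rab17, Rab25 and Rab37. Rab20, Rab27a, Rab32, Rab38 and Rab44 were above it. Rab3d, Rab13 and Rab27b, described above from gland cells, epithelial junctions and secretory granules, were in neither list, and Rab27b passed the stricter line. The lists were drawn up with other results of these arrays known, so the division is a description and depends on which genes were listed.

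Subfamilies of the same number were also compared by their calls. There are 13 of them, with 29 genes. In 11 subfamilies every measured member was above background, and in 9 every member passed the stricter line as well. The line divided the other 4, which were Rab3, Rab7, Rab27 and Rab39. In each of these 1 member lay below it, namely Rab3d, Rab7b, Rab27a and Rab39.

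Rabs known as substrates of LRRK2 were also counted. All 14 were above background, as were 91.4% of all Rab genes, and 11 of them (78.6%) passed the stricter line, against 69.0% of all Rab genes. Their median was 9.67, against 8.47 over all Rab genes. Those under the line were Rab3d, Rab29 and Rab43. Lrrk2 itself was at 9.09 and 8.91, over both thresholds, and its relative Lrrk1 at 5.91 and 5.76, above background only.

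The machinery that acts on Rabs gave signal alongside them. Of 6 measured genes that prenylate, deliver or extract Rabs, 5 passed both thresholds, against 38.2% of all named genes at the stricter line. The GDP dissociation inhibitor Gdi2 was at 11.09 and 11.06, the Rab escort proteins Chm and Chml at 9.88 and 9.75 and at 7.44 and 7.24, and Rabggta, the alpha subunit of the Rab geranylgeranyl transferase, at 8.79 and 8.86. Rabggtb, the catalytic beta subunit of the same enzyme, was under background at 4.44 and 4.48. The subunits form an obligate pair, so the call for Rabggtb stands against that for Rabggta, and the cause was not tested.

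Exchange factors were above background in 26 of 28 measured cases (92.9%), and 17 (60.7%) passed the stricter line. The shares of all named genes were 60.5% and 38.2%. Madd, the exchange factor of Rab3 and Rab27, was at 10.65 and 10.58. Rab3ip (Rabin8), which activates Rab8, was at 10.10 and 9.98, and its relative Rab3il1 at 6.57 and 6.35. Rabgef1 (Rabex-5), which activates Rab5, was at 10.14 and 10.06. Madd, Rab3ip and Rabgef1 exceeded both lines, and Rab3il1 background only. Dennd1b at 5.22 and 5.26 and Dennd2c at 4.80 and 4.82 were under background.

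All 21 GTPase-activating proteins were above background, and 16 (76.2%) passed the stricter line, against 60.5% and 38.2% of all named genes. The subunits of the Rab3 GTPase-activating complex, Rab3gap1 and Rab3gap2, were at 9.74 and 9.57 and at 9.51 and 9.43. Rabgap1 was at 9.85 and 9.72, and Rabgap1l at 9.11 and 9.09. These 4 exceeded both thresholds on each array.

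Among effectors, 30 of 32 measured genes were above background and 24 passed the stricter line, against 60.5% and 38.2% of all named genes. Rims1 and Rims2, the active zone scaffolds that bind Rab3, were at 10.61 and 10.50 and at 9.64 and 9.54. Rabphilin (Rph3a), which binds Rab3 and Rab27, was at 11.49 and 11.43. Its relative Rph3al, known from endocrine and exocrine cells, was under background at 5.47 and 5.49, as was the Rab27 effector Sytl3 at 5.05 and 5.47. A group of 8 Rab27 effectors (Sytl1 to Sytl5, Myrip, Mlph and Unc13d) was formed after the values were seen. It left out Rph3a, which passed both lines. Of these 8, 2 passed both lines, 5 passed background only and 1, Sytl3, did not. The stricter line was passed by 75.0% of all listed effectors and 38.2% of all named genes. The motor adaptor Myrip was at 9.49 on both arrays and Sytl2 at 8.87 and 8.66, whereas the melanosome adaptor Mlph was at 5.86 and 5.80 and the granule priming factor Unc13d at 6.06 and 6.14. Sytl1 was at 5.91 and 6.03, Sytl4 at 5.72 and 5.69, and Sytl5 at 7.26 and 7.05, all under the stricter line on at least 1 array.

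Other branches of small GTPases were counted for comparison. Of 58 Rab genes 53 (91.4%) were above background, against 17 of 17 measured genes of the Ras family and 13 of 16 (81.25%) of the Arf family. Of all named genes 60.5% were. At the stricter line 40 Rab genes (69.0%) passed, against 16 Ras (94.1%) and 13 Arf (81.25%) family genes and 38.2% of all named genes. The Rab share was thus the lowest of these families. No test of these differences was made, and the families use different probes.

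In 7 Rab genes with more than 1 probe set, the probe sets of a gene often gave unequal signal. The 3 probe sets of Rab11b gave 4.89 and 4.90, 11.64 and 11.62, and 8.91 and 8.79 on replicates 1 and 2. Those of Rab3c gave 10.84 and 10.63, and 7.20 and 6.90. For Rab39b they gave 5.83 and 5.40, and 9.44 and 9.15, so that 1 of them was not above background and the other passed the stricter line. In Rab11b, Rab3c and Rab39b the order of the probe sets was the same on both arrays.

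The other 4 genes differed less between probe sets or stayed on 1 side of background. Rab6b gave 12.27 and 12.19 on 1 probe set and 9.06 and 8.71 on the other, both over each line. Rab8a gave 8.82 and 8.74, and 7.52 and 7.39. Rab20 gave 5.85 and 5.69, and 5.82 and 5.92. Rab3d gave 5.59 and 5.53, and 6.69 and 6.65, which places its 1 probe set under background and the other above it. In all, background divided the probe sets of 3 genes (Rab3d, Rab11b and Rab39b) and the stricter line those of 3 (Rab3c, Rab11b and Rab39b). A single low probe set therefore did not mean that the gene gave no signal elsewhere, and 51 of the 58 genes have only 1.

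**Figure D3:**
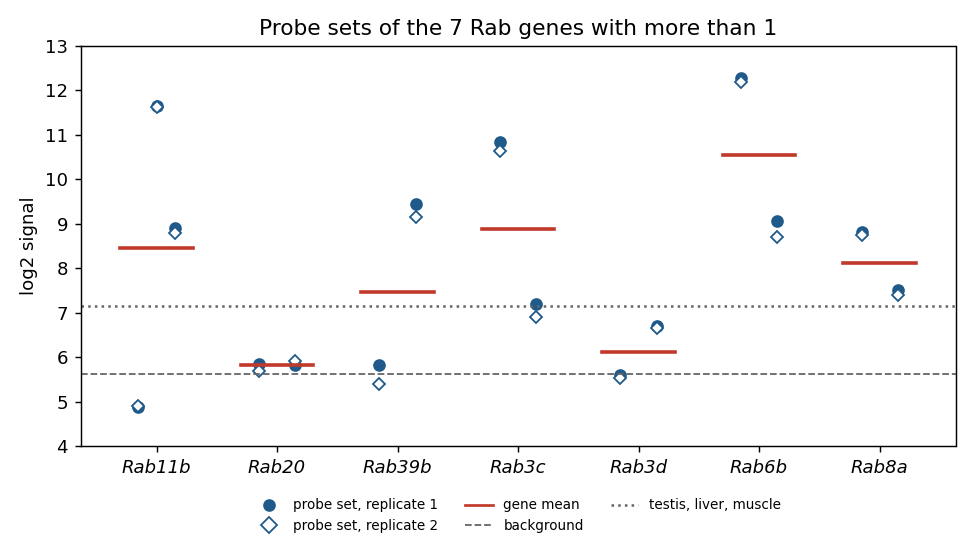
Log2 signal (y axis) of each probe set of the 7 Rab genes with more than 1, on replicate 1 (filled circles) and replicate 2 (open diamonds), with the gene mean (red bar) and both thresholds. The probe sets of Rab11b span means of 4.90 to 11.63, whereas those of Rab20 lie together just above background.

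Technical spread was small against the height of most members. The difference of replicate 1 minus replicate 2 had an SD of 0.163 over the 58 Rab genes, against 0.217 over all named genes, and among genes above background 0.147 for Rab, against 0.149 for all. Rab signals were higher on replicate 1 in 34 genes, higher on replicate 2 in 21 and equal in 3. Over all named genes 11146 were higher on replicate 1 and 10121 on replicate 2. Among genes above background these counts were 32 and 18 for Rab, and 7206 and 5723 for all. The lean differed between role groups, with 13 higher on replicate 1 and 2 on replicate 2 among Rabs of the endoplasmic reticulum and Golgi, and 2 and 5 among Rabs of recycling. Rab39 differed most, by 0.44, followed by Rab17 with 0.39, Rab39b with 0.36 and Rab13 with 0.32, each higher on replicate 1, and by Rab28, which was 0.34 higher on replicate 2. Of these, Rab17 is the member whose call the difference decided.

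**Figure D4:**
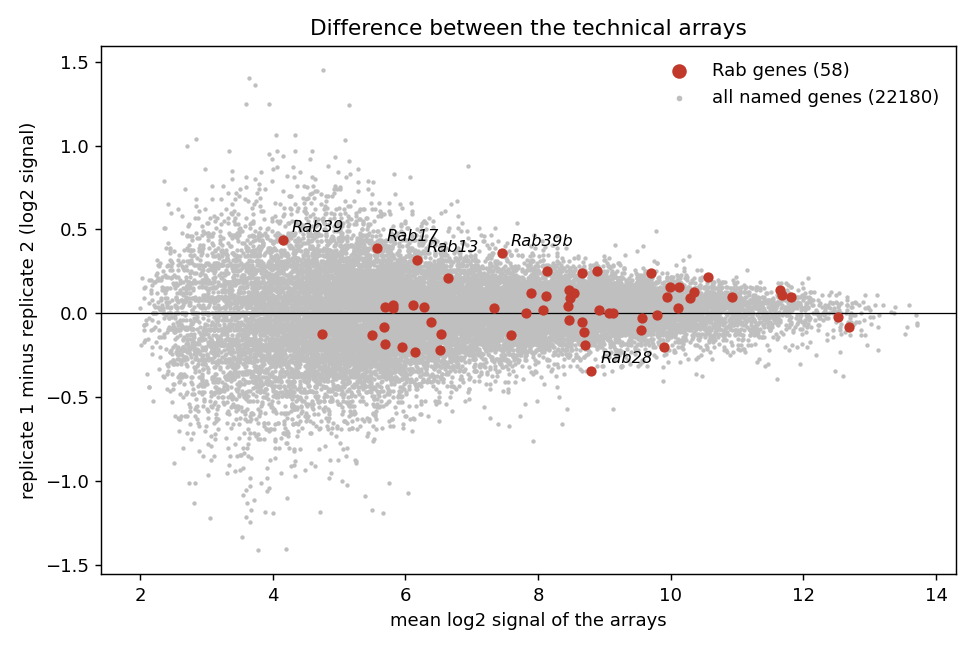
Difference of replicate 1 minus replicate 2 (y axis, log2 signal) against the mean log2 signal of the arrays (x axis) for the 58 Rab genes (red) and all 22180 named genes (grey), with the 5 Rab genes that differed most named. No Rab gene differed by more than 0.44.

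Sequence in front of the genes was compared with these calls. Promoter sequences came from RefSeq (GRCm38.p6) and were found for 47 of the 58 genes, and the 250 bases before the annotated start were read. Cytosines followed by guanine, the CG dinucleotides that mark the promoters of broadly used genes, were counted there, as the mean over starts for the 8 genes with several. The 34 Rab genes above both thresholds had a median of 19.8 CG dinucleotides (range 6 to 40). The 10 above background only had a median of 10.8 (3 to 18) and the 3 not above background had 8, 3 and 18, while the median of 17491 protein-coding genes was 10. The ranges overlap, and no test was made. They are ranges of gene means, and single starts of Rab13, Rab34 and Rab43, above background only, had 20, 19 and 21.

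Promoters are shown for a CG-rich and a CG-poor gene of the brain list and for a CG-poor and a CG-rich gene not above background, 5′ to 3′ with CG in capitals. That of Rab6b lies on the plus strand at chr9:103111824-103112073 and holds 40 CG dinucleotides, and that of Rab39b on the minus strand at chrX:75578232-75578481 and holds 8. The promoter of Rab17 lies on the minus strand at chr1:90967668-90967917 with 3, and that of Rab39 on the minus strand at chr9:53706233-53706482 with 18.
Rab6b: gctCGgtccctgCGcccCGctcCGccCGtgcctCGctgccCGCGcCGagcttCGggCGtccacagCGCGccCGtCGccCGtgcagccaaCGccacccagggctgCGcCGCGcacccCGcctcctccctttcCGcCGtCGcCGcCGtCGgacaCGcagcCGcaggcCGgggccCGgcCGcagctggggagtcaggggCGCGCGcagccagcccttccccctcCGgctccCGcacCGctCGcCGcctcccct
Rab39b: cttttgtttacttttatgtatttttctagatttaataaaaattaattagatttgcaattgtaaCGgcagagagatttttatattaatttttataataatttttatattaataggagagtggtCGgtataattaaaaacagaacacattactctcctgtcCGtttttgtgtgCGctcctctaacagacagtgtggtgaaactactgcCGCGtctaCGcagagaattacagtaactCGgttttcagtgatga
Rab17: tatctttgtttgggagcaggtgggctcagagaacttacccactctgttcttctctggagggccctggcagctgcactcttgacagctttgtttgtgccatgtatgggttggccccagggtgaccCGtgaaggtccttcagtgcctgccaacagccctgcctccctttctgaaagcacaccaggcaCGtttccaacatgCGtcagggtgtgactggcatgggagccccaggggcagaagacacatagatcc
Rab39: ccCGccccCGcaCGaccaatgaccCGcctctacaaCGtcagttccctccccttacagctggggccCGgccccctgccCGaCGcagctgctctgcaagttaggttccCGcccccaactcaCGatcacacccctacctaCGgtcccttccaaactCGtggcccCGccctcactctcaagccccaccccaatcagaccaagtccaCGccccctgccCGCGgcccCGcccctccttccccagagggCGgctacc

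Rab6b and Rab39b both gave signal over each threshold from unlike promoters, the first dense in CG and the other mostly A and T. Rab17 and Rab39, neither of them above background on both arrays, also differed in their number of CG dinucleotides. The other Rabs of the brain list had 6 CG dinucleotides in Rab3b, 7 each in Rab3c and Rab33a, 9.75 in Rab15 and 15.5 in Rab3a, the last 2 as means over several starts. Rabs outside that list but above both thresholds also ranged widely, with 7 in Rab9, 9 in Rab11b, 34 in Rab10 and 39 in Rab35.

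Short motifs were searched on both strands of the same window. The GC box GGGCGG, which itself contains CG, was found in 35 of the 47 Rab genes, against 45.8% of protein-coding genes. CCAAT was found in 23, against 39.5%, TATAAA in 4 (Rab3b, Rab7, Rab39b and Rab42), against 13.7%, and the cyclic AMP response element TGACGTCA, which also contains CG, in 2 (Rab5a and Rab25), against 2.2%. A gene with several starts was counted where any of them held the motif. CCAAT stood in 20 of the 34 genes above both thresholds and in 3 of the other 13. For GGGCGG these counts were 27 and 8, for TATAAA 3 and 1, and for TGACGTCA 1 and 1. A match is a run of letters and not a shown binding site.

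**Figure D5:**
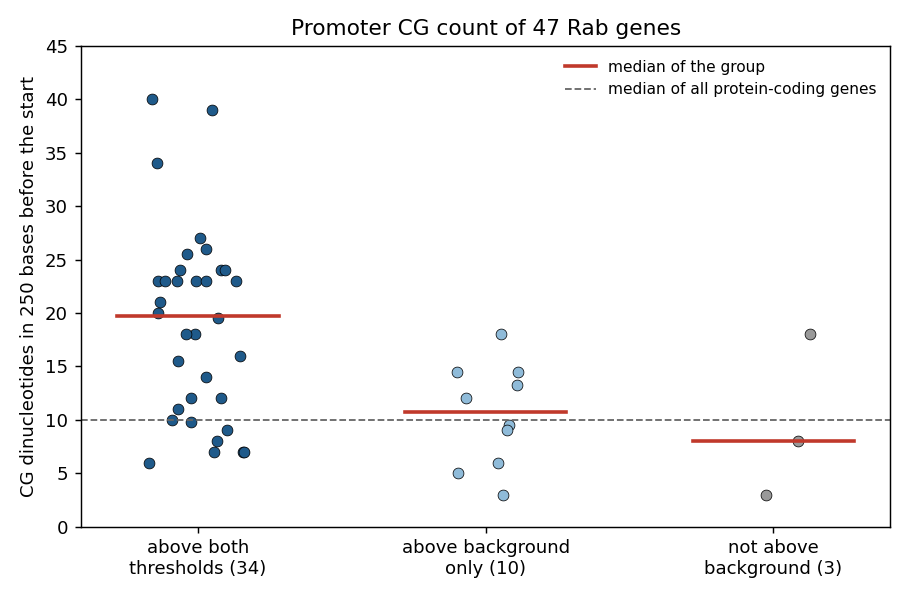
Number of CG dinucleotides in the 250 bases before the start (y axis) for 47 Rab genes by their calls (x axis), 1 point a gene, with the median of each group (red bar) and of all protein-coding genes (dashed line). A point is the mean over starts where a gene has several. Such points above 18 occur only in the group above both thresholds, but single starts of Rab13, Rab34 and Rab43, above background only, have 20, 19 and 21.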

How the data were processed

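RNA from precipitated ribosomes was labelled with the Affymetrix WT Plus kit, per the labels' protocols. The deposited table holds log2 values, 1 per probe set and array. The scale was inferred from the range of the values, and how the authors handled background, summarisation and normalization is not given in the sources used here. Gene names are those of the platform annotation. Of 34472 probe sets, 1814 name several genes and 9137 are unnamed here, and neither kind was used for any gene. All 58 Rab symbols matched a RefSeq gene table. Probe sets of a gene were averaged, and calls were made against percentiles of each array, with Python 3.11.15 and pandas 2.3.3. The procedure was checked on simulated data with genes set 1 log2 unit over or under the background threshold. Calls for genes closer to the threshold were not checked by it. No test was made, since the arrays are technical replicates of 1 group, so their spread leaves out variation between animals, and the number of arrays limits the precision. The members and lists were chosen with earlier results of these data known. All Rab genes are named. Of each list of partners, the first 4 measured members and those on the other side of the threshold are named. The Rab27 effectors grouped after the values were seen are named in addition. Protein features were not computed. Alternatives were other thresholds, probe set summaries, quantile normalization and each array alone. Columns of per-sample values left unused numbered 0.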

Additional observations from a re-analysis of the deposited data

How the results depend on the processing

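The number of Rab genes above background was 53 as reported, 53 with the highest probe set of each gene and 53 after quantile normalization. It was 49 against the median of all probe sets, which 57.5% of all named genes exceeded, and 40 against either the 99th percentile of olfactory and vomeronasal genes or the testis, liver and muscle line, which removed the same 13 genes. Among the 51 genes with only 1 probe set it was 46. Without either replicate it was 54, with Rab37 added on replicate 2 alone and Rab17 on replicate 1 alone. The median of the Rab genes was 8.66 with the highest probe set, against 8.47 as reported, and 8.46 to 8.53 without 1 replicate. No paired analysis was possible because the samples form 1 group. The stricter line rests on 32 genes, and no detection p-values were used here.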
